A study of Mus musculus with 21 samples.

Results

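This account follows 9 genes that make reactive oxygen and nitrogen species in the colon: the NADPH oxidase genes Nox1, Duox1, Duox2 and Cybb, the partner genes Noxo1, Noxa1, Duoxa1 and Duoxa2, and Nos2. They were taken by symbol from a table of read counts for 24062 genes in mouse colon, and all 9 were among the 15936 genes that passed the filter on low counts. RNA was sequenced in 21 libraries of C57BL/6 mice, in 7 groups of 3. The mice were wild-type or carried the App NL-G-F knock-in (strain RBRC06344), in which the amyloid precursor protein gene holds mutations of familial Alzheimer's disease. Tumours came from mice given AOM/DSS, azoxymethane, a carcinogen, with dextran sulfate sodium, an agent that damages the gut lining. Both tissues, normal colon and tumour, came from wild-type males, knock-in males and wild-type females, and the last group was normal colon of knock-in females. The labels call the normal libraries untreated, while the series' design text describes tissue beside tumours or colon in which no tumour had formed, so an untreated control cannot be assumed. Ages and pooling of animals are not given in the sources used here, and counts per gene do not read the knock-in mutations.

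NADPH oxidases pass electrons from NADPH across a membrane to oxygen. Nox1 is the superoxide-producing oxidase of colon epithelium and is switched on by the organizer Noxo1 and the activator Noxa1, whereas Duox2 releases hydrogen peroxide at the apical surface and needs the maturation factor Duoxa2 to leave the endoplasmic reticulum. Duox1 and Duoxa1 form the related pair, Cybb encodes the catalytic subunit of the phagocyte oxidase, and Nos2 encodes the inducible nitric oxide synthase. Epithelial oxidases and Nos2 are known as genes that microbes and inflammatory cytokines induce in the gut.

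The upstream sequences of Nox1, Duox2 and Duoxa2 are shown because these 3 genes had the largest decreases that passed the test in any comparison, those in knock-in female normal colon. Each is the 250 bases before the RefSeq start site on the gene's own strand in GRCm38.p6: chrX:134111855-134112104 (minus strand) for Nox1, chr2:122298228-122298477 (minus strand) for Duox2 and chr2:122298650-122298899 (plus strand) for Duoxa2. Capitals mark matches to the motifs that were searched.
Nox1: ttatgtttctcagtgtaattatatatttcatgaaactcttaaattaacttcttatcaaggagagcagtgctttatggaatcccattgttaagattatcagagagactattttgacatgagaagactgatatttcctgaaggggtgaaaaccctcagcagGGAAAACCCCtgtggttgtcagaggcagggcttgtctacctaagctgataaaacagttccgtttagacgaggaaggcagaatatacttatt
Duox2: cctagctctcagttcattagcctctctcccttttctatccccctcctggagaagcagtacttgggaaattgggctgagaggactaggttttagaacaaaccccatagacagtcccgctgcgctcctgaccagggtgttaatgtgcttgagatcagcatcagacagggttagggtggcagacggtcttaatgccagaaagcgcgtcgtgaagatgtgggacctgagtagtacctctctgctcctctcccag
Duoxa2: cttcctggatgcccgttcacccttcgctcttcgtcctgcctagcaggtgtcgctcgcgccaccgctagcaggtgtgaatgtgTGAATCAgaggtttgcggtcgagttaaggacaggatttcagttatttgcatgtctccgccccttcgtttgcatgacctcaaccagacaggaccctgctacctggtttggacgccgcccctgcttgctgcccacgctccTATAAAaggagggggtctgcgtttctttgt
The search covered both strands for the TATA box (TATAAA), the AP-1 motif (TGANTCA), the STAT motif GAS (TTCNNNGAA), the interferon motif ISRE and the NF-kappaB motif. Counting from -1 at the base before the start, Nox1 held 1 NF-kappaB match at -91 to -82, on the strand opposite to the gene. Duoxa2 held a TATA box at -30 to -25 and an AP-1 match at -168 to -162, and the Duox2 window held none of these letters. The matches did not overlap each other. Of 32851 mouse promoters of the same length, 7.25% held the NF-kappaB motif, 12.4% TATAAA, 6.75% the AP-1 motif, 7.02% GAS and 2.98% ISRE. Duox2 (chr2:122279247-122298449, minus strand) and Duoxa2 (chr2:122298900-122302885, plus strand) lie head to head, with RefSeq start sites 673 bases apart, in one cluster with Duoxa1 (chr2:122302191-122313730, minus strand) and Duox1 (chr2:122315672-122347972, plus strand). Noxa1 is elsewhere on the same chromosome (chr2:25085667-25095149), Noxo1 lies on chromosome 17 (chr17:24696234-24700529), Nos2 on chromosome 11 (chr11:78920787-78960254), and Nox1 (chrX:134086421-134221956) and Cybb (chrX:9435252-9487771) on the X chromosome, with all gene spans by GENCODE M21 on GRCm38, whose ends can differ from the RefSeq start sites. Of the 8 members with a promoter entry, Noxa1 also held an NF-kappaB match, and Cybb held 1 AP-1 and 3 ISRE matches. The windows of Nox1 and Cybb and most of that of Duox2 lie inside the GENCODE spans of these genes. Which start site was used in these colon samples was not tested. A window with or without a match thus need not be the promoter in use.

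Library totals ran from 3414123 to 26174008 counts, and the shallowest library was replicate 2 of the wild-type male tumours. In the knock-in female normal group, 2 columns share a header name and are called a and b beside replicate 1. Neither column can be given to one labelled sample, so whether they stand for separate samples or for the same one is not known. They were counted as separate libraries in every test, and the comparisons with this group rest on that. The tissue label was checked against 10 epithelial markers (such as Epcam, Krt8 and Cdx2), all tested, whose counts scaled to an equal library total (CPM, the usual scale of sequencing counts) summed to between 6191 and 11553 in every library. Smooth muscle markers, 8 genes such as Myh11 and Des, summed to 1984 to 9728 CPM in normal colon and 176 to 1006 CPM in tumours, with every tumour below every normal library. In whole tissue, fewer cells of a type and less RNA per cell cannot be told apart.

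Levels between genes were compared as CPM per kilobase of exon. Over the 21 libraries, Duox2 averaged 60.2 CPM per kilobase, Duoxa2 44.1, Noxo1 26.7, Noxa1 18.5, Nos2 13.2, Nox1 8.15 and Cybb 4.89. Duox1 averaged 0.837 and Duoxa1 0.539 CPM per kilobase, the lowest of the 9. The genes also differed in how far they varied: the highest CPM was 2.02 times the lowest for Noxo1 and 2.46 times for Noxa1, but 11.3 times for Duox2, 24.9 times for Duoxa2 and 96.5 times for Nos2. The 2 cytosolic partners of Nox1 were therefore the steadiest of the 9 and Nos2 the most variable.

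**Figure D1:**
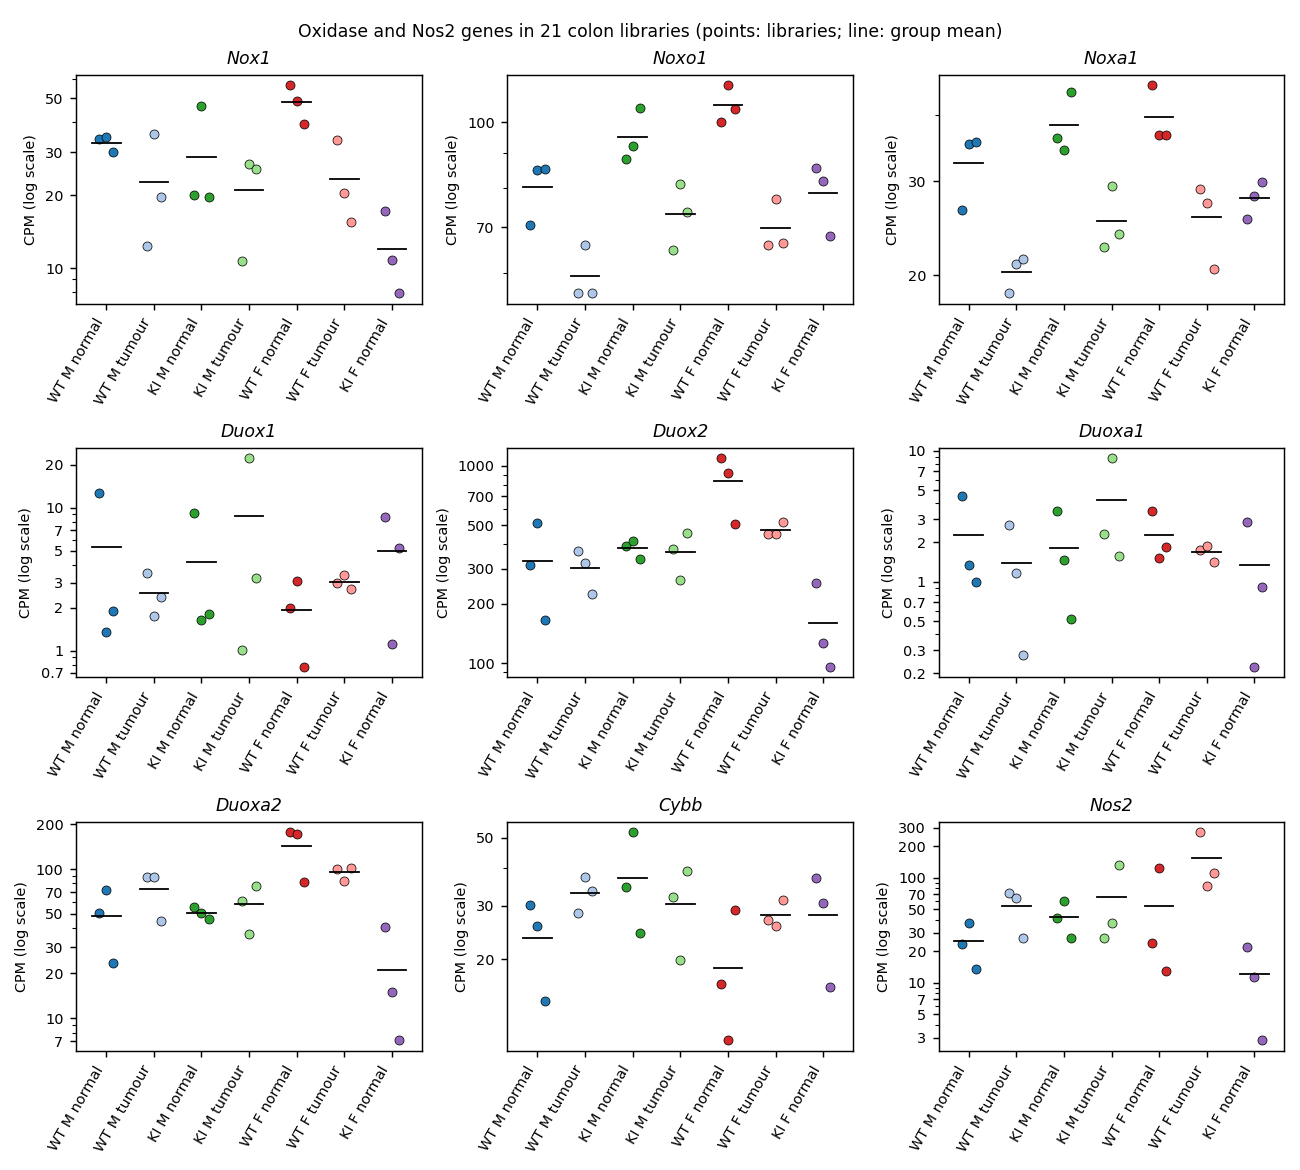
CPM of the 9 genes in each of 21 libraries on log axes, by group; points are libraries and lines are group means. Knock-in female normal colon holds the lowest Duox2, Duoxa2 and Nox1 values, and Noxo1 spans the narrowest range.

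Knock-in and wild-type female normal colon were compared first, as the comparison in which most of the 9 genes changed. Nox1, Noxo1, Noxa1, Duox2 and Duoxa2 fell in knock-in females, which is 5 of 9, and none rose. Among all tested genes, 16% were called in this comparison and 7% were called lower (edgeR adjusted p under 0.05). The members' median log2 fold change was -0.75, beside 0.02 over all tested genes. The CPM of 5 of the 9 did not overlap between the groups, beside 37.8% of all tested genes.

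Duox2, the peroxide-producing oxidase, had 1087, 917 and 509 CPM in wild-type females and 254, 127 and 96.1 CPM in knock-in females. Every knock-in library was below every wild-type one. Duox2 fell by 2.40 on the log2 scale (SE 0.41, 5.26-fold lower, edgeR adjusted p = 0.00143). Its maturation factor Duoxa2 had 177, 171 and 81.8 CPM in wild-type and 41.2, 15.1 and 7.12 CPM in knock-in females, again with no overlap. Duoxa2 fell by 2.75 on the log2 scale (SE 0.55, 6.71-fold lower, edgeR adjusted p = 0.00402). With only these 2 groups in the fit, the adjusted p of Duoxa2 was 0.061 in edgeR. The authors' deposited table gives log2 fold changes of -2.39 for Duox2 and -2.75 for Duoxa2, with DESeq2 adjusted p of 9.9e-09 and 6.89e-06.

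Nox1, the superoxide-producing oxidase, had 56.8, 48.9 and 39.0 CPM in wild-type females and 17.2, 10.8 and 7.89 CPM in knock-in females. The highest knock-in library lay far below the lowest wild-type one. Nox1 fell by 2.01 on the log2 scale (SE 0.45, 4.02-fold lower, edgeR adjusted p = 0.00755). It shares 399 exon bases with Cstf2, an RNA-processing gene on the opposite strand, which averaged 71.6 CPM in wild-type and 49.8 CPM in knock-in females and was itself called lower (log2 fold change -0.52, edgeR adjusted p = 0.00943), the same direction as Nox1; how shared reads were counted is not given in the sources used here.

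The partner genes fell by less. The organizer Noxo1 had 100.0, 113 and 105 CPM in wild-type and 85.7, 82.1 and 67.9 CPM in knock-in females. These ranges did not overlap, and Noxo1 fell by 0.43 on the log2 scale (SE 0.12, edgeR adjusted p = 0.0221). Most of its exon bases are shared with Tbl3 on the opposite strand, so its counts are uncertain; Tbl3 was at 0.13 on the log2 scale here and was not called. The activator Noxa1 had 45.5, 36.7 and 36.7 CPM against 25.5, 28.2 and 29.9 CPM and fell by 0.51 (SE 0.16, edgeR adjusted p = 0.0344). It shares 50 exon bases (3.09%) with Entpd8 on the opposite strand, which was also called lower here (log2 fold change -0.74, edgeR adjusted p = 0.014). Scaled by library totals, edgeR's adjusted p was 0.0599 for Noxo1 and 0.0607 for Noxa1. Each call ended when certain libraries were left out: in edgeR, the adjusted p of Noxo1 was 0.0966 without wild-type replicate 2, 0.0569 without knock-in library a and 0.103 without b. That of Noxa1 was 0.173 and 0.0622 without wild-type replicates 1 and 2, and 0.121, 0.1 and 0.0527 without knock-in replicate 1, a and b. The Noxo1 to Nox1 ratio of CPM was 1.76 to 2.68 in wild-type and 4.98 to 8.61 in knock-in females, higher in every knock-in library.

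Nos2, Cybb, Duox1 and Duoxa1 were not called by edgeR here. Nos2, the inducible nitric oxide synthase, had 23.8, 124 and 13.0 CPM in wild-type and 21.8, 11.4 and 2.83 CPM in knock-in females. The groups overlapped, and 1 wild-type library stood far above the others. Its log2 fold change was -2.13 (SE 0.91, 95% interval -4.07 to -0.19, edgeR adjusted p = 0.126). Cybb, of phagocytes, had 16.6, 10.9 and 29.0 CPM against 36.8, 30.7 and 16.2 CPM, which is 0.58 on the log2 scale (SE 0.38, edgeR adjusted p = 0.312). Duox1 and Duoxa1 had log2 fold changes of 1.38 and -0.75 with SE of 1.08 and 0.87.

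**Figure D2:**
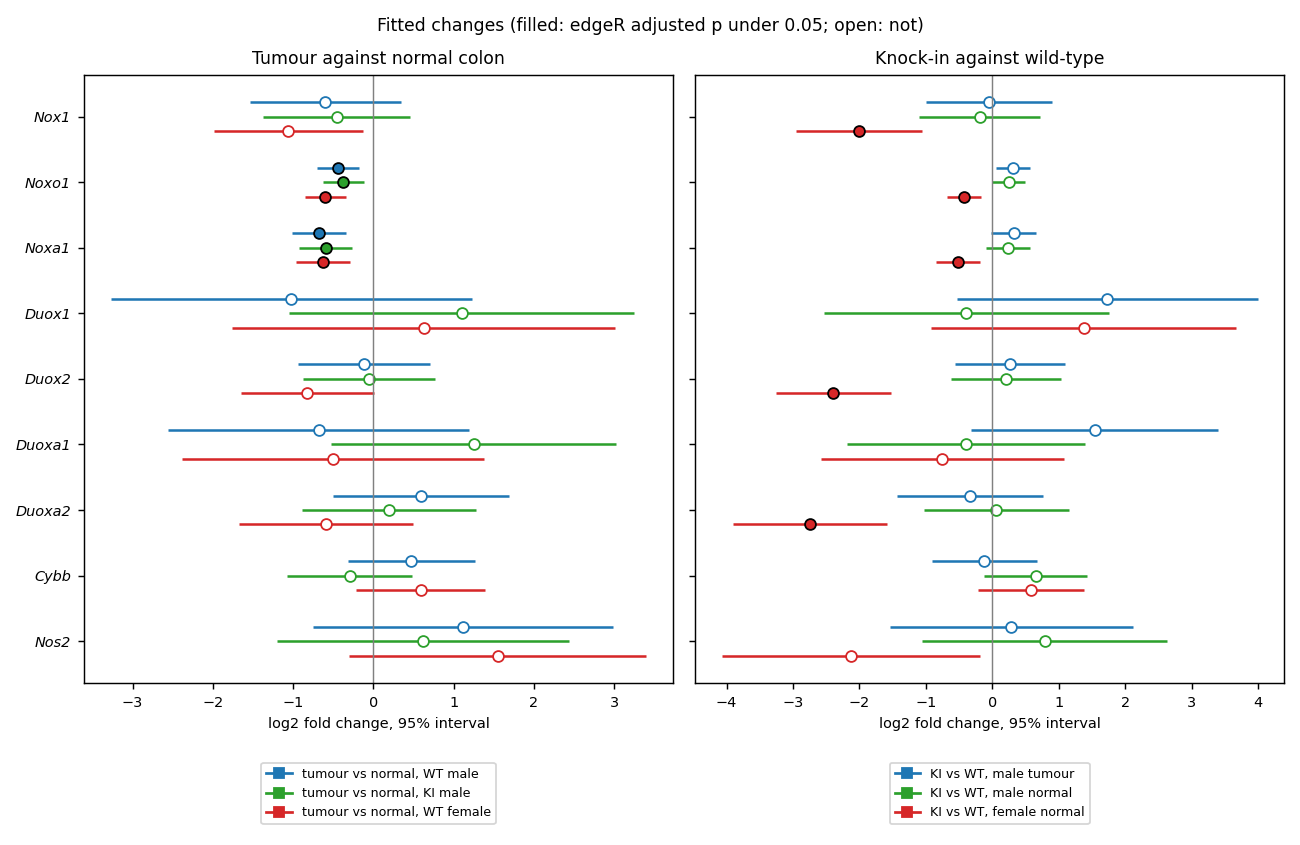
Log2 fold changes of the 9 genes with 95% intervals, for tumour against normal colon (left) and knock-in against wild-type (right); filled points have an edgeR adjusted p under 0.05. In knock-in females 5 genes are filled and lie below 0, and in both male genotype comparisons every point is open.

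The cell makeup of these libraries was measured beside the decreases. Epithelial markers summed to 10663 to 11553 CPM in wild-type and 9909 to 10411 CPM in knock-in females, and 3 of 10 fell. Smooth muscle markers summed to 1984 to 4593 CPM and 6879 to 9723 CPM, and 3 of 8 rose; the part of muscle in the decreases was not tested. Relative to 1000 CPM of the epithelial markers, Duox2 stood at 47.3 to 94.1 in wild-type and 9.23 to 25.6 in knock-in females. The same measure was 7.60 to 16.0 and 0.684 to 4.16 for Duoxa2 and 3.63 to 4.91 and 0.757 to 1.74 for Nox1. These 3 genes were thus lower relative to the epithelial markers as well, without overlap. For the partners the ranges nearly met for Noxo1, at 8.65 to 10.6 against 6.52 to 8.64, and lay apart for Noxa1, at 3.41 to 3.94 against 2.57 to 2.88. Mature colonocyte markers summed to 2439 to 5842 CPM in wild-type and 2982 to 3277 CPM in knock-in females, so these ranges overlapped. The highest wild-type sum was that of replicate 2. Of these 8 markers 1 was called lower and none higher, with a median log2 fold change of -0.55. At an unadjusted p under 0.05 edgeR gave 4, and the DESeq2 Wald test called 2. Among all tested genes edgeR called 16%.

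**Figure D3:**
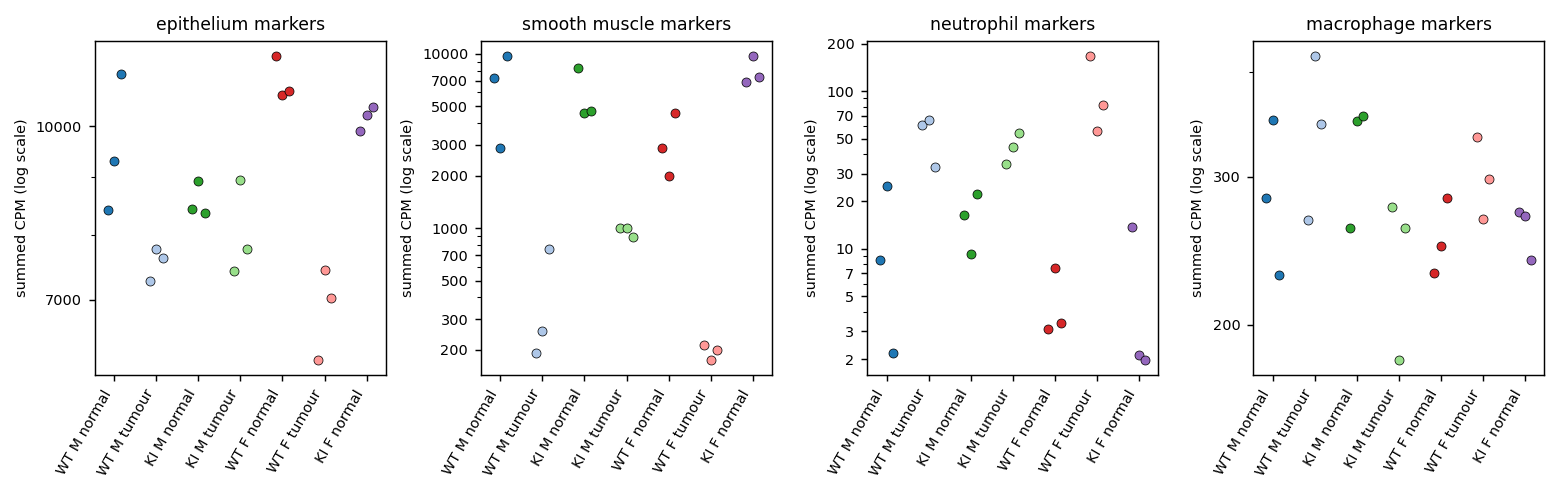
Summed CPM of the epithelium, smooth muscle, neutrophil and macrophage marker lists in each library, log axes. Tumours hold less smooth muscle signal than normal colon, and knock-in female normal colon lies below wild-type female normal colon in epithelial markers.

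In males the same genotype comparison called none of the 9, in normal colon or in tumours. At an unadjusted p under 0.05, edgeR gave 0 members in male normal colon and 1 in male tumours, and the DESeq2 Wald test called 0 in both. Of all tested genes, 0.0126% were called in male normal colon and 14.5% in male tumours. Duox2 had 315, 511 and 165 CPM in wild-type male normal colon and 394, 414 and 335 CPM in knock-in male normal colon. The wild-type libraries spanned the knock-in ones, and the log2 fold change was 0.21 (95% interval -0.62 to 1.03). The log2 fold change of Noxo1 was 0.25 (95% interval -0.01 to 0.50) and that of Noxa1 0.24 (95% interval -0.09 to 0.57), both with the sign opposite to that in females. In male tumours Noxo1 was at 0.31 (95% interval 0.05 to 0.56, edgeR adjusted p = 0.0931), Noxa1 at 0.32 and Duox2 at 0.27 on the log2 scale, knock-in against wild-type.

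Whether the genotype difference in normal colon itself differed between the sexes was tested as an interaction. Duox2 and Noxo1 passed, 2 of 9, beside 2.54% of all tested genes in either direction and 0.778% in the lower direction. The knock-in effect on Duox2 was lower in females than in males by 2.60 log2 units (SE 0.56, edgeR adjusted p = 0.0242), and that on Noxo1 by 0.68 (SE 0.17, edgeR adjusted p = 0.0416). Duoxa2 stood at -2.80 (edgeR adjusted p = 0.0574), Nox1 at -1.82 (edgeR adjusted p = 0.131) and Noxa1 at -0.75 (edgeR adjusted p = 0.0792). The count of 2 was 5 by the DESeq2 Wald test, which added Nox1, Noxa1 and Duoxa2. That test also called more of the 15936 tested genes here, 920 beside 405 in edgeR. The count was 0 when edgeR was fitted to the compared groups alone (adjusted p of 0.0809 for Duox2 and 0.0867 for Noxo1). That fit called 254 of 15699 tested genes. Both calls depended on single libraries. Leaving out wild-type male replicate 1, knock-in male replicate 2, wild-type female replicate 1 or 2, or knock-in female library a or b moved the edgeR adjusted p of Duox2 to between 0.0536 and 0.0781. The adjusted p of Noxo1 lay between 0.0541 and 0.13 without any one of wild-type male replicates 1 and 3, knock-in male replicates 2 and 3, wild-type female replicates 1 and 2, or knock-in female libraries a and b. In the 2 other interactions, of genotype and of sex with the tumour effect, edgeR called 0 of 9, with 0 at an unadjusted p under 0.05 and 0 by the DESeq2 Wald test, beside 1.51% and 1.12% of all tested genes.

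The comparison of female with male normal colon shows which groups made up that interaction; these contrasts share their libraries with the genotype comparisons. In wild-type mice Duox2 and Noxo1 were higher in females, 2 of 9, beside 15.9% of all tested genes in either direction and 5.74% in the higher direction. The mean of Duox2 was 838 ± 297 CPM in these females and 330 ± 173 CPM in these males (SD, n = 3 each), and the ranges overlapped slightly, with 509 CPM as the lowest female and 511 CPM as the highest male value. On the log2 scale Duox2 was higher by 1.34 (SE 0.39, edgeR adjusted p = 0.0301). Noxo1 stood at 106 ± 6.84 CPM and 80.3 ± 8.49 CPM, with no overlap, a log2 fold change of 0.40 and an edgeR adjusted p of 0.0314. Duoxa2 was at 1.55 on the log2 scale (edgeR adjusted p = 0.0536, DESeq2 Wald adjusted p = 0.0196), with no overlap. Of all tested genes, 34.2% were without overlap here. Neither call was stable. In edgeR, the adjusted p of Duox2 was 0.115 and 0.0829 without male replicates 1 and 3 and 0.118 and 0.0965 without female replicates 1 and 2. That of Noxo1 was 0.187 and 0.0556 without male replicates 1 and 2 and 0.0544, 0.126 and 0.0517 without female replicates 1, 2 and 3. With only these 2 groups in the edgeR fit the adjusted p was 0.0803 for Duox2 and 0.063 for Noxo1. Smooth muscle markers summed to 1984 to 4593 CPM in these females and 2862 to 9728 CPM in these males, with 2 of 8 called lower and a median log2 fold change of -1.14. Of the epithelial markers 1 of 10 was called higher, with sums of 10663 to 11553 and 8417 to 11138 CPM, and of the mature colonocyte markers 1 of 8. The part of tissue makeup in these differences was not tested.

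In knock-in mice the values ran the other way. In the knock-in female libraries, 6 of the 9 genes lay below every knock-in male normal library, namely Nox1, Noxo1, Noxa1, Duox2, Duoxa2 and Nos2, beside 9.7% of all tested genes. None passed edgeR's adjusted threshold, where 0.584% of all tested genes did. At an unadjusted p under 0.05 edgeR gave 5 of the 9, beside 2433 of 15936 tested genes. The DESeq2 Wald test called 1, Duox2, beside 583 of 15936. The log2 fold change, female against male, was -1.26 for Duox2 (edgeR adjusted p = 0.139), -1.26 for Nox1 (edgeR adjusted p = 0.178) and -1.82 for Nos2 (edgeR adjusted p = 0.357). Smooth muscle markers summed to 4569 to 8287 CPM in the male and 6879 to 9723 CPM in the female knock-in libraries, and epithelial markers to 8367 to 8937 and 9909 to 10411 CPM, so the epithelial sum was higher in the female libraries.

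Tumours were then compared with normal colon of the same sex and genotype. In all 3 comparisons edgeR called the same 2 of 9 genes, Noxo1 and Noxa1, lower and none higher. In the order wild-type male, knock-in male and wild-type female, 35.7%, 20.4% and 49.1% of all tested genes were called, and 19.3%, 9.97% and 24% were called lower. These shares are the background of the 2 of 9. In both wild-type comparisons 2 of 9 is near the share called lower and below the share called in either direction. The count there is thus no result particular to the members. In knock-in males the share called lower was smaller than in either wild-type comparison, and 2 of 9 is near the share in either direction. The members' median log2 fold change was -0.44, -0.06 and -0.59 in that order, beside medians of all tested genes within 0.01 of 0.

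Noxo1 had 70.5, 85.0 and 85.5 CPM in wild-type male normal colon and 56.0, 66.1 and 56.1 CPM in the tumours. No tumour reached a normal library, and Noxo1 fell by 0.44 on the log2 scale (SE 0.12, edgeR adjusted p = 0.00966). In knock-in males it had 88.1, 92.3 and 105 CPM in normal colon and 64.8, 81.2 and 73.7 CPM in tumours and fell by 0.38 (edgeR adjusted p = 0.0349). In wild-type females the tumours had 65.9, 77.2 and 66.3 CPM, below the 3 normal libraries given above, and Noxo1 fell by 0.60 (edgeR adjusted p = 0.000511). The bases shared with Tbl3, a ribosome-biogenesis gene, are 2122, or 70.4% of the exon bases of Noxo1. Tbl3 rose in the tumours of wild-type males (log2 fold change 0.36) and wild-type females (0.45), the direction opposite to Noxo1, and was at 0.14 in knock-in males without passing the test.

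Noxa1 had 26.5, 35.3 and 35.5 CPM in wild-type male normal colon and 18.5, 20.95 and 21.5 CPM in tumours. It fell by 0.68 on the log2 scale (SE 0.16, edgeR adjusted p = 0.00362). In knock-in males it fell by 0.59 (edgeR adjusted p = 0.0153), from 36.2, 34.4 and 44.1 CPM to 22.6, 29.4 and 23.9 CPM. In wild-type females it fell by 0.63 (edgeR adjusted p = 0.00306), and the tumours had 29.1, 27.4 and 20.6 CPM. Entpd8, with which Noxa1 shares exon bases, was called lower in the same 3 comparisons (log2 fold changes -1.11, -0.77 and -1.95), and the part of shared reads in the Noxa1 values was not tested. The groups did not overlap in any of the 3 comparisons, where 52.4%, 33.6% and 58.4% of all tested genes were without overlap. In knock-in males both calls ended without normal replicate 3 (edgeR adjusted p of 0.142 for Noxo1 and 0.0789 for Noxa1), and the call for Noxo1 also ended without tumour replicate 1 (0.0782) or 3 (0.0717). Both also ended with only these 2 groups in the edgeR fit (adjusted p of 0.117 for Noxo1 and 0.0746 for Noxa1).

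The fall of the 2 partner genes went with a lower epithelial signal in the wild-type tumours, while the ranges overlapped in knock-in males. The epithelial markers summed to 8417 to 11138 CPM in wild-type male normal colon and 7274 to 7769 CPM in the tumours, 8367 to 8937 and 7431 to 8950 CPM for knock-in males, and 10663 to 11553 and 6191 to 7445 CPM for wild-type females. Of the 10 markers, 7, 1 and 9 fell in these 3 comparisons, and 1 rose in each. Among all tested genes 19.3%, 9.97% and 24% were called lower. Per 1000 CPM of epithelial markers, Noxo1 was at 7.67 to 9.13 in normal colon and 7.35 to 8.50 in tumours of wild-type males, and at 8.65 to 10.6 and 9.45 to 10.6 in wild-type females, so these ranges overlapped. In knock-in males Noxo1 stayed lower on this measure, 10.3 to 12.6 against 8.72 to 9.49. Noxa1 was at 3.14 to 3.79 and 2.54 to 2.81 in wild-type males and, for knock-in males, 3.85 to 5.27 and 3.04 to 3.29, lower in tumours without overlap, but at 3.41 to 3.94 and 2.93 to 4.69 in wild-type females. Of 8 mature colonocyte markers, 6, 5 and 7 were called lower in tumours of wild-type males, knock-in males and wild-type females, and none higher. Their median log2 fold changes were -2.30, -1.21 and -2.91. The part of colonocyte loss in the Noxo1 and Noxa1 values was not tested.

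The catalytic genes Nox1 and Duox2 were not called by edgeR in any tumour comparison, while in wild-type females the DESeq2 Wald test called both (adjusted p of 0.0234 for Nox1 and 0.0428 for Duox2). So did edgeR when it was fitted to these 2 groups alone (adjusted p of 0.00908 and 0.0185). These fits called 8035 of 15936 and 7186 of 14380 tested genes, in that order. Nox1 had 33.9, 34.7 and 30.0 CPM in wild-type male normal colon and 12.4, 35.8 and 19.6 CPM in the tumours, which overlapped. In knock-in males normal colon had 20.1, 46.3 and 19.7 CPM and the tumours 10.7, 26.9 and 25.5 CPM, with a log2 fold change of -0.46. In wild-type females the tumours had 33.8, 20.4 and 15.5 CPM, all below the normal libraries, with a log2 fold change of -1.06 (95% interval -1.99 to -0.14, edgeR adjusted p = 0.0546). It was past the threshold with the replicate number as a block (edgeR adjusted p = 0.0457) and without tumour replicate 1 (0.0284). Duox2 had 451, 449 and 519 CPM in wild-type female tumours, where 1 normal library lay within the tumour range, and it stood at -0.83 on the log2 scale (edgeR adjusted p = 0.0916, and 0.0401 without normal replicate 3). It was called in 3 of 13 other settings. In males Duox2 was at -0.11 in wild-type (371, 321 and 223 CPM in tumours) and -0.06 in knock-in mice (381, 265 and 455 CPM), with adjusted p of 0.848 and 0.935 in edgeR. Its tumour levels in wild-type females lay above those in wild-type males without overlap, as in 31.2% of all tested genes taken in either direction, at a log2 fold change of 0.63 (edgeR adjusted p = 0.365). Between wild-type female and male tumours none of the 9 was called, at an unadjusted p under 0.05 neither (0 in edgeR), and the DESeq2 Wald test called 0, beside 0.86% of all tested genes in edgeR.

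Duox2 and Duoxa2 moved together across the libraries. By the root mean square difference of log2 CPM after removing each gene's mean, Duoxa2 was the gene nearest to Duox2 among 11938 searched, at 0.39 over the 21 libraries, followed by Clca1 (0.43) and Clca4 (0.47), members of a gene family made by gut epithelium. The ratio of Duox2 to Duoxa2 CPM was 6.18 to 7.09 in wild-type male normal colon and 3.63 to 4.98 in the tumours, without overlap. For knock-in males it was 7.10 to 8.10 and 5.93 to 7.18, and for wild-type females 5.37 to 6.23 and 4.47 to 5.43, where the ranges overlapped. In knock-in female normal colon it ran from 6.16 to 13.5. Duoxa2 had 88.6, 88.5 and 44.8 CPM in wild-type male tumours against 51.0, 72.0 and 23.4 CPM in normal colon, with a log2 fold change of 0.59 (edgeR adjusted p = 0.399).

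**Figure D4:**
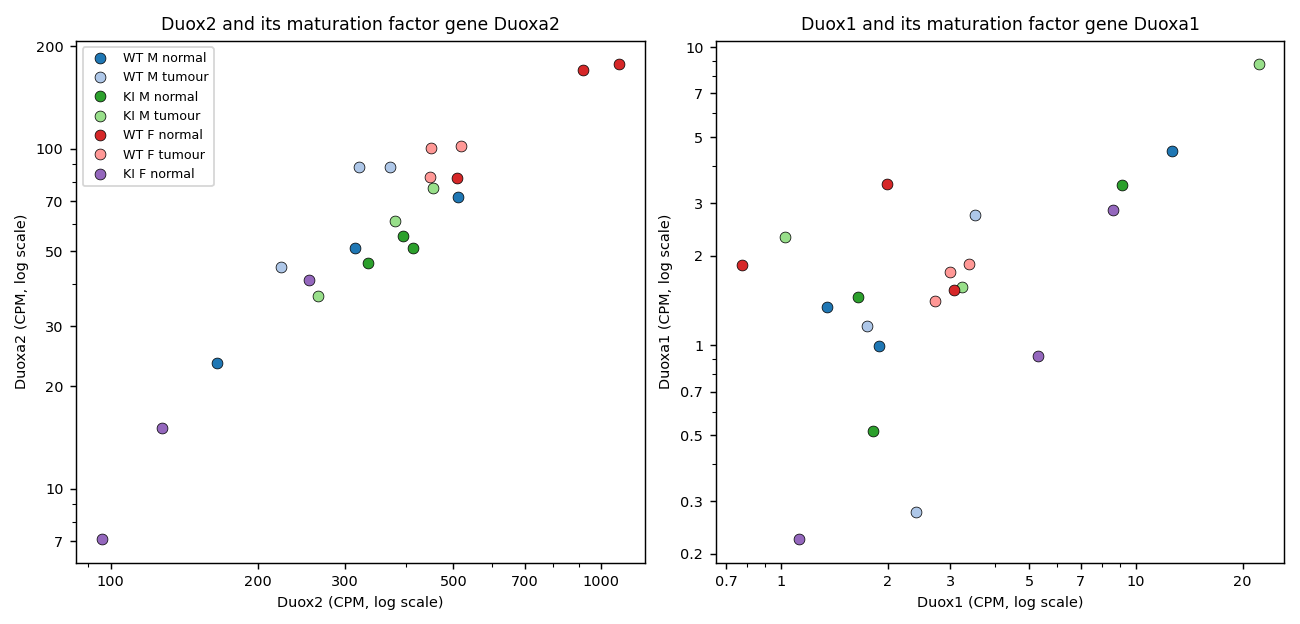
CPM of Duox2 against Duoxa2 (left) and of Duox1 against Duoxa1 (right) in 21 libraries, log axes, coloured by group. Duox2 and Duoxa2 lie along a line from knock-in female to wild-type female normal colon, and for Duox1 and Duoxa1 single libraries of several groups stand high.

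Duox1 and Duoxa1 were low and set by single libraries. Duox1 lay between 0.77 and 22.2 CPM, and its highest library, replicate 2 of the knock-in male tumours, held 88.7% of that group's Duox1 counts and 74.7% of its Duoxa1 counts. In wild-type male normal colon, replicate 1 had 12.7 CPM of Duox1 and the others 1.35 and 1.89 CPM. Replicate 1 also led in knock-in male normal colon (9.16 CPM, others 1.65 and 1.82) and knock-in female normal colon (8.63 CPM, others 1.12 and 5.28). Neither gene was called by edgeR in any of the 9 comparisons of groups or the 3 interactions. Duoxa1 and Duoxa2 share 682 exon bases on opposite strands, 17.1% of the exon bases of Duoxa1 and 42.8% of those of Duoxa2, and without a known strand setting the counts of both are uncertain.

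Nos2 was highest in wild-type female tumours, with 273, 83.2 and 111 CPM, and lowest in knock-in female normal colon. Tumour against normal colon, its log2 fold change was 1.55 for wild-type female mice (SE 0.87, adjusted p = 0.154), 1.11 for wild-type male mice (adjusted p = 0.344) and 0.61 for knock-in male mice (adjusted p = 0.635), and none passed in edgeR. In wild-type females 1 normal library, replicate 2 with 124 CPM, lay within the tumour range, and without it the edgeR adjusted p was 0.0151. In wild-type males the tumours had 71.4, 64.0 and 26.8 CPM and normal colon 23.5, 37.1 and 13.6 CPM. In knock-in males the tumours had 26.9, 37.2 and 134 CPM and normal colon 41.0, 60.3 and 27.0 CPM. One tumour library thus stood above all others of the group, and without it (replicate 3) the log2 fold change was -0.42.

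Nos2 is made by activated phagocytes as well as by epithelium, and markers of both were read beside it. Neutrophil markers, of which 7 of 8 listed were tested, summed to 3.13 to 7.53 CPM in wild-type female normal colon and 56.0 to 167 CPM in tumours, and all 7 rose. In wild-type males 2 of 7 rose (2.19 to 25.0 and 33.1 to 66.1 CPM) and in knock-in males none did in edgeR (9.31 to 22.2 and 34.4 to 54.2 CPM; 1 at an unadjusted p under 0.05, and 0 by the DESeq2 Wald test). Among all tested genes 49.1% were called in wild-type female, 35.7% in wild-type male and 20.4% in knock-in male tumours, in either direction. The 2 of 7 in wild-type males lies below that share. Cxcr2, Retnlg and Mmp8 were each at 0 counts in 4 libraries. The part of neutrophils in the Nos2 values was not tested. The genes nearest to Nos2 over the 21 libraries were Mfsd2a, Dhrs9 and Steap4, at root mean square differences of 0.76, 0.79 and 0.80 log2 units, and those nearest to Nox1 were Nfkbiz, Vcan and Zc3h12a, at 0.53, 0.54 and 0.56.

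Cybb, the phagocyte oxidase gene, kept to 10.9 to 52.3 CPM. It was called in none of the comparisons in edgeR, with log2 fold changes of 0.47 in wild-type male, -0.30 in knock-in male and 0.59 in wild-type female tumours and 0.65 between the genotypes in male normal colon. Without normal replicate 3, its edgeR adjusted p in wild-type female tumours was 0.0499. The nearest genes were Lcp1, Sla and Il10ra, at 0.22, 0.24 and 0.25 log2 units, all known mainly from blood-derived cells. Macrophage and monocyte markers summed to between 182 and 418 CPM in every library, with overlapping ranges in tumour and normal colon of each sex and genotype.

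Other subunits of the NADPH oxidases were counted beside the 9 genes, and 9 of 11 listed were tested. In wild-type female tumours 6 rose and none fell, among them Sh3pxd2b, which organizes oxidases at invasive membrane structures (log2 fold change 2.64), Nox4, a constitutively active oxidase (2.26), Cyba, the membrane partner of Nox1 and Cybb (1.84), and the phagocyte subunit Ncf4 (1.17). Nox4 had 0 to 62 counts per library and a mean of 1.54 CPM, so its change rests on few counts. In wild-type male tumours Cyba (1.13) and Sh3pxd2b (1.38) rose, and in knock-in male tumours Sh3pxd2b alone did (0.77). The shares of all tested genes called were 49.1% in wild-type female, 35.7% in wild-type male and 20.4% in knock-in male tumours. Between the genotypes in male tumours Cyba was lower in knock-in mice (-0.87), and no other subunit passed, beside 14.5% of all tested genes called. In female normal colon 4 of 9 rose in knock-in mice, including the phagocyte subunits Ncf1 (1.19) and Ncf4 (1.55), while the 5 epithelial members above fell. The list's median log2 fold change was 0.95 there, beside 0.02 over all tested genes, of which 16% were called.

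Genes of nitric oxide and arginine metabolism gave mixed counts. Of 16 tested, 2 rose and 3 fell in wild-type male tumours, none rose and 1 fell in knock-in male tumours, and 6 rose and 5 fell in wild-type female tumours. Among all tested genes the called shares were 35.7%, 20.4% and 49.1%. The list was near that share in wild-type males, below it in knock-in males and above it in wild-type females. Whether it differed from the share was not tested. Gucy1a3, a subunit of the nitric oxide receptor guanylate cyclase, fell in all 3, with log2 fold changes of -2.78, -0.98 and -2.13, and its partner Gucy1b3 fell by 1.04 in wild-type male tumours. Ddah2, which degrades inhibitors of the synthases, rose in wild-type male (1.47) and wild-type female tumours (2.39). Nos1, the neuronal synthase, fell in wild-type male (log2 fold change -4.06) and wild-type female tumours (-4.54), where all 8 smooth muscle markers also fell. In knock-in male tumours all 8 fell as well (median log2 fold change -2.54), while Nos1 was at -0.33 (edgeR adjusted p = 0.762). Nos1 had 0 counts in 2 of the 21 libraries, at most 226 counts in any and a mean of 5.61 CPM. Its fold changes therefore rest partly on values near the floor. Nos1 was higher in male tumours of knock-in mice, at a log2 fold change of 3.92, beside smooth muscle sums of 888 to 1006 CPM in the knock-in and 192 to 754 CPM in the wild-type tumours, and the part of muscle tissue was not tested. In the same comparison Gucy1a3 (1.81) and Ddah1 (1.37) were higher and Ddah2 was lower (-1.14). With Nos1, 3 of 16 were higher and 1 lower, beside 14.5% of all tested genes called. Arg1, which competes with Nos2 for arginine, rose in wild-type female tumours (4.52). In female normal colon Gch1, which makes the cofactor of Nos2, and Ddah1 fell in knock-in mice (log2 fold changes -0.74 and -2.07) and Nos3, the endothelial synthase, rose (1.49). These 3 of 16 were the ones that passed, near the 16% of all tested genes called there.

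Genes that remove peroxide and superoxide were tested in full, 22 of 22. Wild-type male tumours had 6 that rose and 2 that fell, knock-in male tumours 7 and 1, and wild-type female tumours 9 and 4. Of all tested genes 35.7%, 20.4% and 49.1% were called in these comparisons. The count in wild-type males is near that share, and whether the others exceed theirs was not tested. Hmox1, the inducible heme oxygenase, rose in all 3 (3.04, 1.74 and 3.18 on the log2 scale), as did Slc7a11, the cystine importer (2.59, 2.20 and 2.91), Prdx1, Prdx2 and Txnrd1. Prdx6, a peroxiredoxin, fell in all 3, with log2 fold changes of -2.61, -1.14 and -3.08. Txn1, thioredoxin, fell by 0.93 in wild-type male tumours, and Sod3, the extracellular superoxide dismutase, rose by 2.24 in wild-type female tumours. In knock-in against wild-type male tumours 4 rose and 2 fell, in that Nqo1 (1.17), Prdx6 (0.83), Txn1 (0.66) and Gclm (0.36) were higher and Hmox1 (-1.83) and Gpx1 (-0.27) were lower. In female normal colon 3 rose and 3 fell in knock-in mice, with Sod3 higher by 1.75. The genotype comparisons called 14.5% of all tested genes in male tumours and 16% in female normal colon. Of 4 peroxidases that use hydrogen peroxide only Lpo was tested; it fell in knock-in female normal colon (log2 fold change -2.42, edgeR adjusted p = 0.00172) and in wild-type male tumours (-1.16), and was higher in male tumours of knock-in mice by 1.49.

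Known inducers of Nos2 and the epithelial oxidases were also counted, 11 of 14 tested; Ifng, Il17a and Il22 had at most 9 counts in any library. In wild-type male tumours 5 rose and 3 fell, with the cytokine genes Il1b at 2.73 and Tnf at 2.62, Il18 at -1.20 and the receptor gene Ifngr1 at -1.14 on the log2 scale. In knock-in male tumours none passed in edgeR; 2 had an unadjusted p under 0.05, and the DESeq2 Wald test called 1. In wild-type female tumours 3 rose, Il1b by 4.25, and 4 fell, with Il18 at -1.76, Ifngr1 at -1.37 and Irf1 at -1.15. Beside these counts, 35.7%, 20.4% and 49.1% of all tested genes were called in wild-type male, knock-in male and wild-type female tumours. In knock-in against wild-type male tumours Ifngr1 was higher (0.67), and Tnf and Rela were lower (-1.89 and -0.46). In female normal colon Tnf and Nfkbiz fell in knock-in mice, with log2 fold changes of -2.11 and -1.13, and none rose. These 2 of 11 are near the 16% of all tested genes called there. In male tumours the share was 14.5%. Genes of these lists named for female normal colon were chosen after their values were seen.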

How the data were processed

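Total RNA of mouse colon was sequenced in 21 libraries, 3 in each of 7 groups, which were taken from the sample labels. The authors deposited raw counts per gene; the submitters' processing notes name Trimmomatic, HISAT2, featureCounts, DESeq2 and mm10, with no versions, and the strand setting is not given in the sources used here. A second deposited table holds the authors' log2 fold changes and adjusted p-values, printed only where named. Its 21 log2 columns of single libraries were not used.

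The counts were tested with edgeR 4.0.16 (R 4.3.3): TMM scaling, filterByExpr by group, a robust quasi-likelihood fit of all libraries with 1 coefficient per group, two-sided tests, Benjamini-Hochberg adjustment over all tested genes and a threshold of 0.05. There were 9 comparisons of groups and 3 interactions. CPM used TMM-scaled totals, and log2 CPM a prior count of 2. Exon lengths and overlaps came from GENCODE M21 on GRCm38, and promoters from RefSeq. Nothing in the labels says that libraries came from separate animals, so p-values measure the spread between these libraries.

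The members and lists were chosen with earlier results of these data known. All 9 members are named; of each list, genes are named that passed in all 3 tumour comparisons or between the genotypes in male tumours, or were among the 4 largest changes. For Nos2, Nox1, Duox2 and Cybb, the 3 genes of nearest pattern with a mean of at least 50 counts are named.

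Tested on simulated data for knock-in against wild-type female normal colon (15688 genes, 200 changed), edgeR recovered 61% of genes changed by 1 log2 unit and 90% of those changed by 2, with 5 false calls. For the interaction of sex and genotype it recovered 34% and 77%, with 4 false calls. The simulation changed far fewer genes than were called in the data and added no outlying libraries, so these rates need not hold for the data. In wild-type males, same-numbered tumour and normal libraries had weakly correlated deviations from their group means (r = 0.17, 0.17 and 0.21). No other compared groups had positive values for every number, but replicate 1 of knock-in and wild-type male normal colon reached 0.46. Libraries of different numbers were not compared, so whether the numbers pair animals was not tested. The main edgeR fit is unpaired.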

Additional observations from a re-analysis of the deposited data

Results flagged for a closer look

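In edgeR's test of the difference itself, the genotype effect on normal colon was not the same in females and males for 2 of the 9 genes. For Duox2 the female effect minus the male effect was -2.60 log2 units (adjusted p = 0.0242). For Noxo1 it was -0.68 log2 units (adjusted p = 0.0416). The DESeq2 Wald test called 5 of the 9 in this interaction (Nox1, Noxo1, Noxa1, Duox2 and Duoxa2). It also called more of all 15936 tested genes, 920 beside 405 in edgeR. When fitted to the compared groups alone, edgeR called 0 of the 9, beside 254 of 15699 tested genes. When single libraries were left out, the edgeR count ran from 0 to 3 members, and the calls for Duox2 and for Noxo1 were each lost in several of these fits.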

How the results depend on the processing

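Depth and 3 libraries per group limit all values, and Duox1 and Duoxa1 rest on few counts. Of 57 results on single genes recomputed under each other setting, 679 values kept direction and side of the threshold, 49 lost it, 19 gained it and 9 changed sign; the cause was not tested. With library totals in place of TMM, the median of all tested genes moved to 0.15 in wild-type female tumours and 0.10 between female genotypes (log2), and edgeR called 1 member in knock-in male tumours, 3 between female genotypes (Nox1, Duox2 and Duoxa2), 1 between wild-type sexes in normal colon and 1 in the interaction of sex and genotype. The share of all calls that were higher went with it from 51.0% to 62.1% in wild-type female tumours, from 56.1% to 72.8% between female genotypes, from 36.1% to 21.4% between wild-type sexes in normal colon, from 46.7% to 61.2% between their tumours, from 31.2% to 55% between knock-in sexes (55% with DESeq2 size factors too) and from 69.4% to 82.2% in the interaction. Without the low-count filter it called 1 between wild-type sexes in normal colon and 1 in that interaction. With libraries 152 to 154 as a covariate, edgeR called 6378 of 15936 tested genes in wild-type female tumours, where the main fit called 7820. The 57 single-gene results kept direction and side of the threshold there. The DESeq2 Wald test called 4 members in wild-type female tumours, 1 between knock-in sexes and 5 in the interaction. Of 15936 tested genes it called 8035, 583 and 920 there, beside 7820, 93 and 405 in edgeR's main fit. When the fit held no other groups than those compared, edgeR called 0 in knock-in male tumours, 4 in wild-type female tumours, 0 between wild-type sexes in normal colon and 0 in the interaction. In that order, these fits called 724 of 15330, 7186 of 14380, 1623 of 14885 and 254 of 15699 tested genes.

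Leaving out 1 library at a time gave 2 to 2 members in wild-type male, 0 to 2 in knock-in male and 2 to 4 in wild-type female tumours, 3 to 5 between female genotypes, 0 to 2 between wild-type sexes in normal colon and 0 to 3 in the interaction. Sign changes came from such omissions. Tumour against normal colon, Duox2 in wild-type males ranged from -0.44 to 0.34 log2 units, above 0 without normal replicate 2 (0.34) or tumour replicate 3 (0.07). In knock-in males Nox1 ranged from -0.71 to 0.027 (above 0 without normal replicate 2) and Duox2 from -0.24 to 0.10 (above 0 without tumour replicate 2). Without tumour replicate 3 Duoxa2 was at -0.052, in a range up to 0.41, and Nos2 at -0.42, in a range up to 0.95. Between male genotypes, Duox2 in normal colon ranged from -0.12 (without wild-type replicate 3) to 0.66, and Nos2 in tumours from -0.74 (without knock-in replicate 3) to 0.63, with -0.05 without wild-type replicate 3.

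The replicate block, fitted on 18 libraries of 6 groups, called 2 members in wild-type male, 2 in knock-in male and 3 in wild-type female tumours (Nox1 added), and 3 between wild-type sexes in normal colon (Duoxa2 added). This block fits 1 shared effect per replicate number across all these groups, so it does not pair animals. Same-numbered tumour and normal libraries had r of -0.06, -0.05 and 0.007 in wild-type females and -0.30, 0.06 and 0.06 in knock-in males. The block could not include the knock-in female group because 2 of its columns carry no number of their own.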
